A study of Mus musculus with 16 samples.

Results

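Type I interferon-stimulated genes are genes whose transcription rises when a cell senses interferon alpha or beta. The set described here holds 44 such genes, chosen by name with earlier results of these data known, in RNA-seq read counts of microglia sorted from mouse brain. All 44 were found among the 55385 genes of the count table, and all 44 had enough reads to be tested, with 14513 genes tested in all. The 16 libraries came from mice labelled 20 weeks of age, with 4 libraries in each of 4 genotypes. WT mice carried intact Card9 and no transgenes. Card9-/- mice lacked Card9, an adaptor that relays signals from C-type lectin receptors, in every cell because the deletion is in the germline. 5xFAD mice carried intact Card9 and human transgenes with mutations of familial Alzheimer's disease, driven by a neuronal promoter, so that amyloid beta accumulates in the brain. Card9-/-5xFAD mice carried both the deletion and the transgenes. All were bred from stocks that the paper lists as female 5xFAD mice, Card9-/- mice and C57BL/6J mice. After the meninges and choroid plexus were taken away, cells were collected with CD11b magnetic beads, which bind microglia and other myeloid cells. Nothing in the labels says outright that each replicate was a separate mouse, so the p-values measure the spread between these libraries.

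Interferon alpha and beta bind the receptor IFNAR1/IFNAR2, whose kinases JAK1 and TYK2 phosphorylate STAT2. With IRF9 it acts in the complex ISGF3, which binds the interferon-stimulated response element in promoters and switches on genes that sense viral nucleic acid, block virus entry, copying and release, and tune the signal itself. Microglia keep this pathway at a low tone in the healthy brain, and interferon-responsive microglia are known from aged and amyloid-bearing brain. Several members, the guanylate-binding proteins above all, also respond strongly to interferon gamma, which acts through a different element.

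Between 2970148 and 19333325 reads per library fell on genes, and 11152 to 41771 of these fell on the 44 members. Levels are given in CPM, the count of a gene per 1000000 reads of the TMM-scaled library. Microglial markers were high in all 16 libraries, with Tmem119 at 527 to 4132 CPM and P2ry12 at 1764 to 6306 CPM, and genes of other cells were also present. Of the T or NK cell markers, Cd3e reached at most 0.22 CPM and Nkg7 at most 219 CPM, and of the B cell markers Ms4a1 reached at most 0.40 CPM and Igkc at most 268 CPM. In each genotype the library of lowest sum over 8 microglial markers was picked out. In Card9-/- these sums were 27510, 16682, 24269 and 12772 CPM in replicates 1 to 4, so replicate 2 was low as well. The 4 libraries picked out, WT replicate 1, Card9-/- replicate 4, 5xFAD replicate 1 and Card9-/-5xFAD replicate 4, had sums of 11168 to 12990 CPM against 16682 to 29668 CPM in the other 12. They held 2970148 to 7188423 reads on genes, against 6081583 to 19333325 in the other 12. All but 5xFAD replicate 1 had the fewest reads of their genotype. The 8 neutrophil markers summed to 2106 to 6322 CPM in these libraries against 496 to 2407 CPM in the others. Of these 8, S100a8 and S100a9 summed to 1586 to 5088 CPM against 278 to 1030 CPM, Camp and Retnlg to 358 to 1226 CPM against 87.5 to 369 CPM, and Ltf, Mmp8, Cxcr2 and Ngp to 162 to 273 CPM against 53.0 to 1009 CPM. For the transgene comparisons, the counts of members past the threshold described below are given with and without these libraries, as are some medians. Values of single genes, the score and the counts of groups without overlap rest on all 16 libraries unless stated otherwise. Card9 itself had reads in every library, with 16.7 to 34.8 CPM in Card9-/- and 13.6 to 51.3 CPM in WT, so its count does not check the labels and the genotypes are those of the labels.

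The members differed widely in level. Per kilobase of merged exons, the highest mean levels were those of Ifitm3, a membrane protein that blocks virus fusion in endosomes, at 1005 CPM per kb, and Ifi27l2a at 600.4 CPM per kb. Bst2, or tetherin, which holds budding virus particles at the cell surface, followed at 318 CPM per kb, and Lgals3bp, a secreted protein that binds galectin-3, at 178 CPM per kb. At the other end Oas3 stood at 0.325 CPM per kb and Ifi44 at 0.704 CPM per kb, so their values rest on few reads. The members lie on 15 chromosomes, several of them in clusters of related genes. The 4 Ifit genes, for example, lie together at chr19:34550694-34650009. Related genes can share reads, so values of Ifit3 and Ifit3b, of the Oas, Slfn and Gbp genes and of Ifi204 and Ifi207 are less certain than the others. How the counting treated strand is not given in the sources used here. Exons of a gene on the other strand overlap those of Irf7 (Phrf1), Slfn5 (Slfn5os), Cxcl10 (Art3), Dhx58, Usp18 and Oasl1, among others. On the same strand, exons of another gene overlap those of Gbp7 (Gm43802), Rtp4 (Gm45338), Irf9 (Rnf31), Herc6, Sp100 and Parp14.

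**Figure D1:**
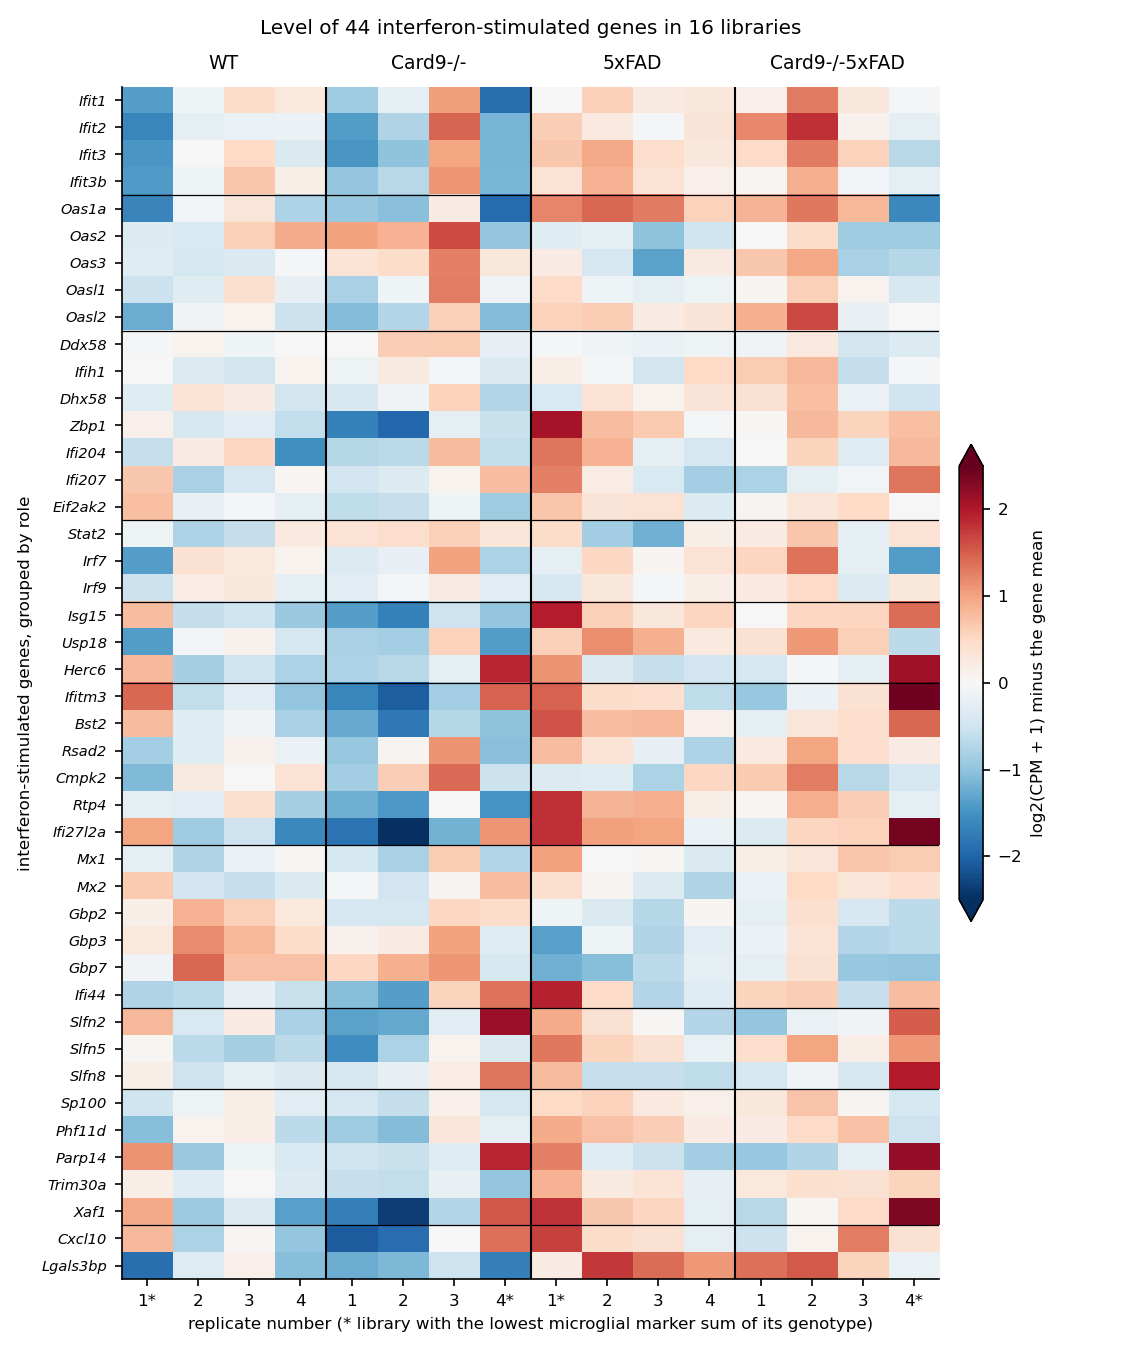
Levels of the 44 genes (rows, grouped by role with lines between roles) in the 16 libraries (columns, by genotype), coloured by log2(CPM + 1) minus the mean of that gene over the 16 libraries. Lgals3bp, Isg15 and Bst2 are mostly red in the right 8 columns and Gbp7 and Gbp3 mostly blue, while Ifitm3, Herc6, Parp14 and Xaf1 are reddest in the starred libraries of lowest microglial marker sum.

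The promoters show how far these genes share the response element. In RefSeq windows of 300 bases on GRCm38.p6 (250 before the start site and 50 from it onward), available for 34 of the 44 members, the core of the element was searched as GAAA, any 2 bases, GAAA, on both strands, with overlapping matches counted. It was found in 21 of the 34, or 61.8%, against 1079 of the 27025 genes with a window, or 3.99%. Of these 21, 8 held at least 2 matches (Bst2, Gbp3, Ifit1, Ifit3, Ifit3b, Ifitm3, Isg15 and Oas1a). The 150 bases before the start site are shown for 6 members whose levels differed with the transgenes, 4 that rose and 2 that fell, with each match in capitals. The sequences are written 5′ to 3′ in the direction of transcription.
Isg15, chr4:156200819-156200968, minus strand: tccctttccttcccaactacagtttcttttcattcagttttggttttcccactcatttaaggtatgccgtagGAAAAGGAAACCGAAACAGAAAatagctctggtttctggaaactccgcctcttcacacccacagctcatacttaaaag
Bst2, chr8:71537473-71537622, minus strand: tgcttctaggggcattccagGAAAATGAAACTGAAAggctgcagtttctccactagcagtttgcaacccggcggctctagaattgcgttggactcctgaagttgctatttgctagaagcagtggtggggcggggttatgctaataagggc
Oas1a, chr5:120907526-120907675, minus strand: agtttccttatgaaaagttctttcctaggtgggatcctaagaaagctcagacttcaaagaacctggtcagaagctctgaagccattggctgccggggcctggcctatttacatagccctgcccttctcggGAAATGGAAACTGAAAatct
Gbp7, chr3:142530186-142530335, plus strand: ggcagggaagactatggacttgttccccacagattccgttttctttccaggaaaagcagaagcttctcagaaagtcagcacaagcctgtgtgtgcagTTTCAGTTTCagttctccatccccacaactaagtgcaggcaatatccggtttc
Gbp3, chr3:142559894-142560043, plus strand: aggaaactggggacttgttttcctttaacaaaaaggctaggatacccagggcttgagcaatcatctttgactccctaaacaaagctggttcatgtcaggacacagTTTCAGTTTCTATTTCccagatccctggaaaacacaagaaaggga
Lgals3bp, chr11:118401960-118402109, minus strand: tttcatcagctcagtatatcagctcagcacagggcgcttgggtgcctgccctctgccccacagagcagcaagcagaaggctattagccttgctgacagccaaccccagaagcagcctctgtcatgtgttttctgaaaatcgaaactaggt

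In Isg15 the copies ran on for 3 overlapping matches that began 78, 72 and 66 bases before the start site. Bst2 and Oas1a held 2 overlapping matches each, and Gbp3, which fell, held 2 as well. Lgals3bp, the member with the lowest p in the comparison of the transgenes, held no match in its 300 bases, which says only that these letters are absent from that window. Among the members that passed the threshold described below, the match was present in 5 of the 8 higher members with a window and in both lower ones, and among the members that did not pass it was present in 14 of 24. Ifit3 and Ifit3b are shown because their windows were 99.2% identical over 260 aligned bases. Both carried 2 matches whose starts lay 34 bases apart, and the stretch around them did not differ by a base.
Ifit3: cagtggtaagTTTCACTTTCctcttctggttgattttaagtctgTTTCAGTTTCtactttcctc
Ifit3b: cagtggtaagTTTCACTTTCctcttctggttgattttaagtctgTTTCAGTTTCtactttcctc

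**Figure D2:**
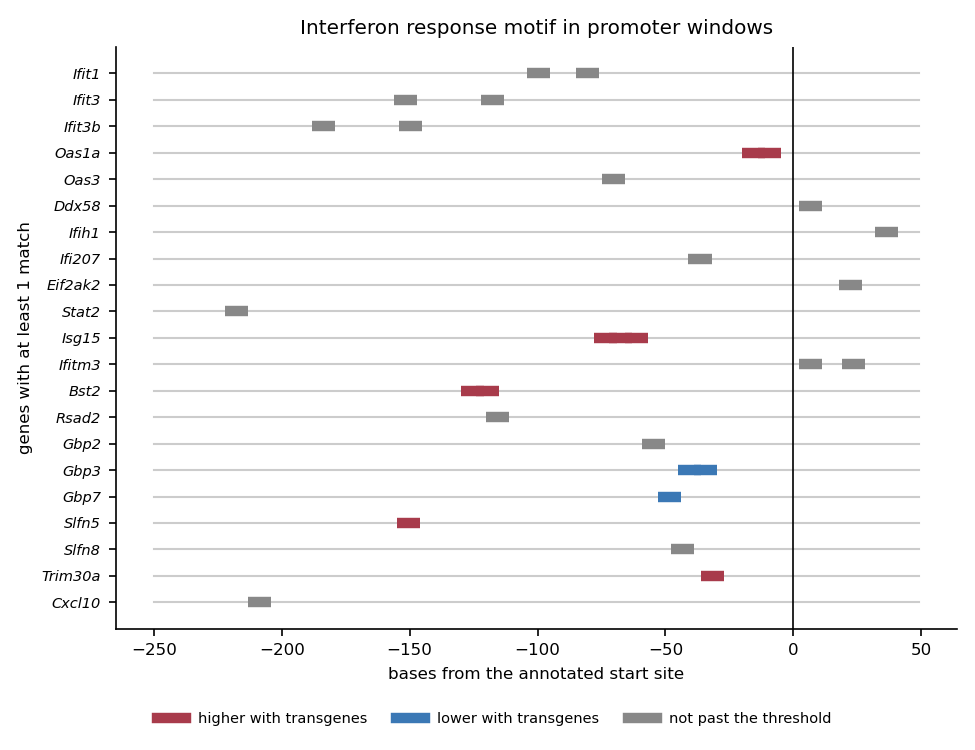
Position of each match in the first promoter window of 21 genes (rows), in bases from the annotated start site at 0, with grey lines for the window. Red marks genes higher with the transgenes, blue genes lower and grey genes not past the threshold. Most matches lie within 156 bases before the start site. The 3 matches of the 2 genes that fell begin 53 to 39 bases before it, and those of genes that rose 155 to 14 bases before it.

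The first comparison asks how these genes differ between microglia of amyloid-bearing and amyloid-free brain. More of the members were higher than lower with the transgenes. The members were chosen with earlier results of these data known, so an excess over all genes is a description and no independent test. The median log2 fold change of the 44 members was 0.43 in 5xFAD against WT and 0.45 in Card9-/-5xFAD against Card9-/-, whereas the median of all genes tested was -0.15 in both. Of the 44 members, 38 had a log2 fold change above 0 with Card9 intact and 34 without it, against 38.9% and 39.4% of all genes. For 49 other interferon-stimulated genes tested, described below, the medians of the 2 comparisons were 0.0017 and 0.12. Single libraries moved the values of the members. The first median was 0.27 without 5xFAD replicate 1, when 28 members were above 0, and 0.76 without 5xFAD replicate 4. The second was 0.25 without Card9-/- replicate 1 and 0.85 without Card9-/- replicate 3. Few single genes passed in either comparison alone. With edgeR's quasi-likelihood test and an adjusted p under 0.1, 2 of 44 members passed in 5xFAD against WT, where 2.09% of all genes tested did, and 3 of 44 passed in Card9-/-5xFAD against Card9-/-, where 1.97% did. Averaged over both Card9 genotypes, with 8 libraries a side, 11 members were higher, where 5.62% of all genes were, and 2 members were lower, where 5.73% were. The median log2 fold change was then 0.49 for the members and -0.15 for all genes. A change in the number of cells in this state and a change in RNA per cell cannot be told apart in bulk libraries.

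**Figure D3:**
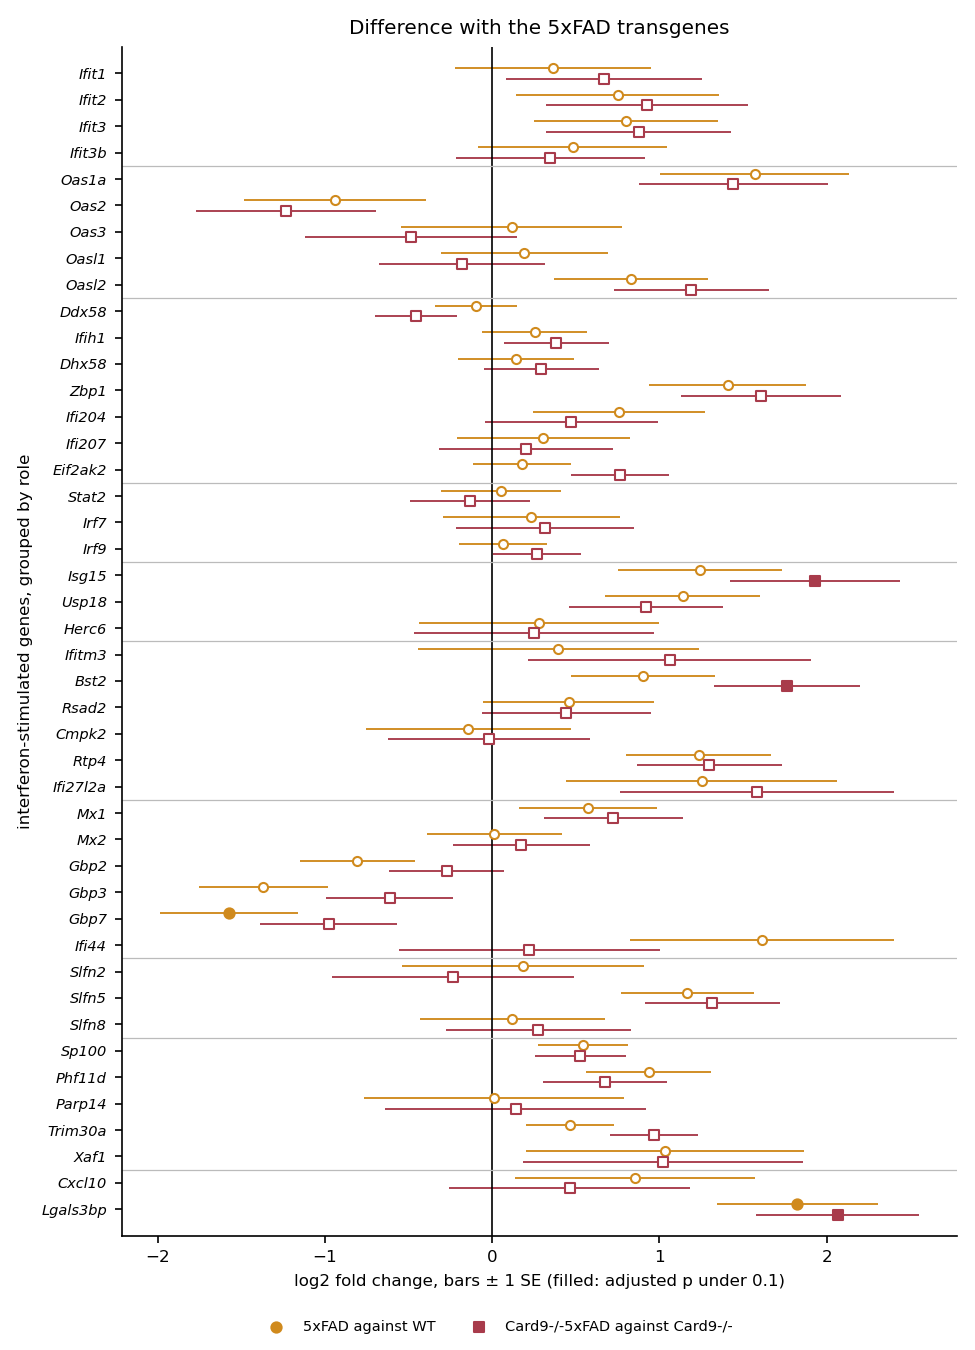
Log2 fold change (horizontal axis, bars ± 1 SE) of the 44 genes in 5xFAD against WT (orange circles) and Card9-/-5xFAD against Card9-/- (red squares), from the fit of all 16 libraries. Filled symbols have an adjusted p under 0.1. Most genes lie right of 0 in both comparisons, with Lgals3bp farthest right, and Gbp7, Gbp3 and Oas2 lie left of 0 in both.

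Among the secreted members, Lgals3bp gave the clearest difference. It lies at chr11:118392751-118402092. It measured 101, 297, 408 and 178 CPM in replicates 1 to 4 of WT and 431, 1272, 986 and 797 CPM in 5xFAD. It measured 157, 171, 259 and 113 CPM in Card9-/- and 966, 1084, 553 and 331 CPM in Card9-/-5xFAD. Every library with the transgenes was thus above every library without them within each Card9 genotype, and Lgals3bp was the only member of which this held, against 1.61% of all genes. Averaged over the Card9 genotypes, its log2 fold change was 1.95 (SE 0.34, adjusted p 0.00233 by edgeR). It rose by 1.82 (SE 0.48, adjusted p 0.0841) in 5xFAD against WT and by 2.07 (SE 0.49, adjusted p 0.0525) in Card9-/-5xFAD against Card9-/-. In all 4 genotypes its lowest value came from the library of lowest microglial marker sum. Cxcl10, the chemokine that draws CXCR3-bearing lymphocytes, had an averaged log2 fold change of 0.66 and did not pass.

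Isg15 encodes the ubiquitin-like protein that is joined to newly made proteins during the response. It lies at chr4:156199424-156200818. It measured 22.9, 8.30, 8.94 and 6.42 CPM in WT and 54.0, 20.2, 16.2 and 19.3 CPM in 5xFAD. In the Card9-deficient genotypes it measured 4.44, 3.35, 8.77 and 6.22 CPM without and 13.1, 19.1, 19.3 and 36.0 CPM with the transgenes. The groups did not overlap in the Card9-deficient pair, and in the other pair only WT replicate 1 reached into the 5xFAD range. The averaged log2 fold change was 1.59 (SE 0.35, adjusted p 0.0127 by edgeR), and the change in Card9-/-5xFAD against Card9-/- was 1.93 (SE 0.51, adjusted p 0.0847). Usp18, which strips ISG15 from proteins and damps the receptor, rose by 1.03 in the averaged comparison. Herc6, the mouse ligase that attaches ISG15, did not pass, with an averaged log2 fold change of 0.27.

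Of the 7 nucleic acid sensors, 1 passed. Zbp1, which binds Z-form nucleic acid and can start necroptosis, lies at chr2:173206612-173218923. It measured 19.9, 13.4, 14.8 and 11.6 CPM in WT and 79.6, 31.7, 29.0 and 17.8 CPM in 5xFAD. It measured 4.92, 3.93, 15.2 and 12.1 CPM in Card9-/- and 18.5, 32.7, 27.3 and 31.2 CPM in Card9-/-5xFAD. The groups did not overlap in the Card9-deficient pair, and in the other pair 5xFAD replicate 4 lay below WT replicate 1. Zbp1 rose by 1.51 on average (SE 0.34, adjusted p 0.0132 by edgeR). Ddx58, Ifih1 and Dhx58, which encode the RNA sensors RIG-I, MDA5 and LGP2, had averaged log2 fold changes of -0.28, 0.32 and 0.22 and did not pass. Neither did the DNA sensor gene Ifi204 (0.62), its neighbour Ifi207 (0.26) or Eif2ak2, which encodes the kinase PKR (0.47).

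Among 6 genes of membrane and nucleotide restriction factors, Bst2 and Rtp4 passed. Bst2, at chr8:71534255-71537456, measured 406, 190, 220.3 and 134 CPM in WT and 701, 403, 412 and 259 CPM in 5xFAD. It measured 98.0, 67.9, 144 and 116 CPM in Card9-/- and 198, 290, 321 and 635 CPM in Card9-/-5xFAD. The Card9-deficient pair did not overlap, while in the other pair WT replicate 1 lay above 2 of the 5xFAD libraries. The averaged log2 fold change was 1.33 (SE 0.31, adjusted p 0.0154 by edgeR), and the change in Card9-/-5xFAD against Card9-/- was 1.76 (SE 0.44, adjusted p 0.0661). Rtp4, a chaperone of membrane receptors, rose by 1.27 (SE 0.31, adjusted p 0.021 by edgeR). Ifitm3 averaged 0.73 and Ifi27l2a 1.42 with SEs of 0.60 and 0.58, and neither passed. Rsad2, which encodes viperin, averaged 0.45 and Cmpk2, the nucleotide kinase gene beside it, -0.08.

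Slfn5, a nuclear protein of the Schlafen family, lies at chr11:82951349-82964840. It measured 19.5, 11.4, 10.1 and 11.6 CPM in WT and 48.4, 28.1, 24.8 and 16.6 CPM in 5xFAD. It measured 5.76, 10.5, 20.0 and 14.4 CPM in Card9-/- and 26.1, 38.1, 21.4 and 40.8 CPM in Card9-/-5xFAD. Again the Card9-deficient pair did not overlap and 5xFAD replicate 4 lay below WT replicate 1. Slfn5 rose by 1.24 on average (SE 0.28, adjusted p 0.015 by edgeR). Its relatives Slfn2 and Slfn8 averaged -0.02 and 0.20 and did not pass. Among the nuclear and cell death proteins, Trim30a, which restrains Toll-like receptor signaling, rose by 0.72 (SE 0.19, adjusted p 0.0303 by edgeR) and Phf11d rose by 0.81. Sp100 of PML nuclear bodies (0.54), Xaf1 (1.03) and the ADP-ribosyltransferase gene Parp14 (0.08) did not pass.

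The genes of the 2-5A synthetase family, named for enzymes that make the messenger that activates RNase L, did not move as a block. Oas1a rose by 1.51 (SE 0.40, adjusted p 0.0338 by edgeR), from means of 24.9 ± 13.6 CPM (SD, n = 4) in WT and 19.2 ± 12.7 CPM in Card9-/- to 74.2 ± 17.7 CPM in 5xFAD and 52.5 ± 30.4 CPM in Card9-/-5xFAD. Oasl2 rose by 1.01. Oas2 averaged -1.09 (SE 0.38) and lay just outside the threshold, with an adjusted p of 0.102 by edgeR, while Oas3 (-0.18) and Oasl1 (0.01) had log2 fold changes near 0. None of the 4 Ifit genes, whose proteins bind viral RNA, passed, although all 4 had log2 fold changes above 0 in both comparisons. Their averaged values ran from 0.42 for Ifit3b to 0.84 for Ifit3, with SEs of 0.39 to 0.43. The transcription factor genes Stat2, Irf7 and Irf9 averaged -0.04, 0.28 and 0.17, and none passed.

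Both members that fell, Gbp7 and Gbp3, are guanylate-binding proteins, large GTPases that attack the vacuoles of intracellular microbes. Gbp7, at chr3:142530342-142550149, measured 52.6, 152, 94.0 and 94.0 CPM in WT and 23.8, 26.0, 34.9 and 47.3 CPM in 5xFAD. It measured 80.3, 105, 122 and 41.9 CPM in Card9-/- and 48.0, 72.8, 28.5 and 27.6 CPM in Card9-/-5xFAD. All 4 WT values exceeded all 4 5xFAD values, while in the Card9-deficient pair replicate 4 of Card9-/- lay among the transgenic libraries. On average its log2 fold change was -1.27 (SE 0.29, adjusted p 0.0151 by edgeR), and in 5xFAD against WT it was -1.57 (SE 0.41, adjusted p 0.0832). Gbp3 averaged -0.99 (SE 0.27, adjusted p 0.0388 by edgeR) and Gbp2 -0.54, which did not pass. Of the remaining GTPases, Mx1 averaged 0.65 and Mx2 0.09, and neither passed. Ifi44 had a log2 fold change of 1.62 in 5xFAD against WT and 0.22 in Card9-/-5xFAD against Card9-/-, with SEs of 0.79 and 0.78, with values of 0.662 to 15.5 CPM over the 16 libraries.

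**Figure D4:**
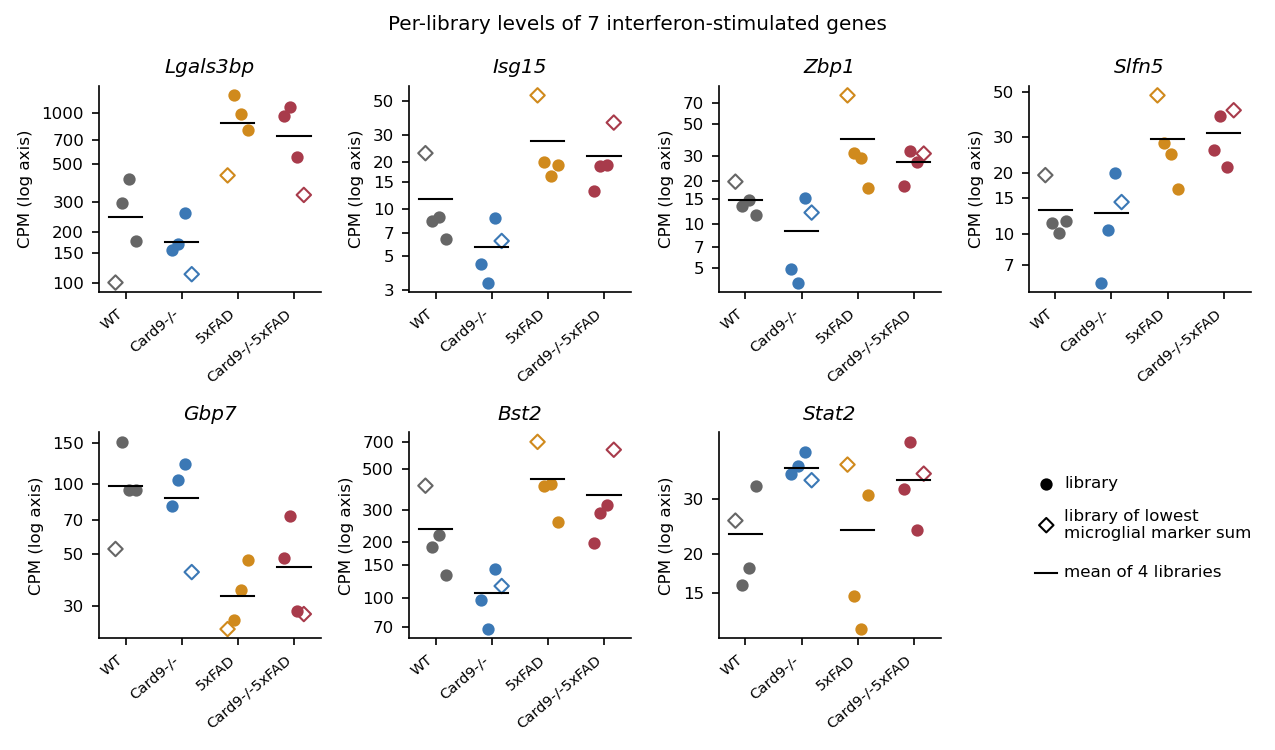
CPM on a log axis in each of the 16 libraries for 7 genes, with points for libraries, open diamonds for the library of lowest microglial marker sum in each genotype and bars for the mean of 4. Lgals3bp separates the transgenic from the other libraries within each Card9 genotype, Gbp7 lies lower with the transgenes, and Isg15, Zbp1 and Bst2 are highest in 5xFAD replicate 1.

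Counting only members whose 4 values in each group did not overlap, 6 members were higher in 5xFAD than in WT (Ifit2, Oas1a, Oasl2, Usp18, Phf11d and Lgals3bp), where 4.35% of all genes were. A further 3 were lower (Gbp2, Gbp3 and Gbp7), where 3.69% of all genes were. In Card9-/-5xFAD against Card9-/-, 7 were higher (Zbp1, Eif2ak2, Isg15, Bst2, Slfn5, Trim30a and Lgals3bp), where 3.53% of all genes were, and 0 were lower, where 3.48% were. No member was lower without overlap in both comparisons, where 0.944% of all genes were. The 2 comparisons use separate libraries, but the scaling and the low-count filter were set over all 16 libraries. Their tests also share the estimate of spread, which the counts of groups without overlap do not use.

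Members also varied between libraries of 1 genotype. In all 4 genotypes, 8 members (Ifitm3, Herc6, Parp14, Slfn8, Xaf1, Slfn2, Ifi207 and Ifi27l2a) were highest in the library of lowest microglial marker sum, where 20.0% of all genes were. Ifitm3, for example, stood at 1282, 1332, 1331 and 2583 CPM in these libraries of WT, Card9-/-, 5xFAD and Card9-/-5xFAD, and at 114 to 659 CPM in the other 12. The opposite held for 4 members (Irf7, Lgals3bp, Ifit1 and Gbp7), lowest in that library in all 4 genotypes, where 16.1% of all genes were. Neither share of the 44 exceeded that of all genes, so nothing is read from them about the members. The median merged exon length was 3756.5 bases for the first set, 3311.5 for the second and 3856 for the other members. Other libraries also stood out. Card9-/- replicate 3 was the highest of its genotype for 32 of the 44 members, and 5xFAD replicate 1 and Card9-/-5xFAD replicate 2 for 26 each.

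A score per library put this in 1 value. It was the mean over the 44 members of log2 CPM minus that gene's mean over the 16 libraries. It is in log2 units, since genes were not divided by their SD. It was -0.24, -0.24, 0.03 and -0.36 in WT, 0.72, 0.34, -0.01 and -0.06 in 5xFAD, -0.79, -0.69, 0.38 and -0.21 in Card9-/-, and 0.11, 0.66, 0.05 and 0.31 in Card9-/-5xFAD. The groups overlapped in both pairs. In the first pair WT replicate 3 lay above the lower 2 5xFAD libraries, and in the second Card9-/- replicate 3 lay above 3 of the 4 Card9-/-5xFAD libraries. The difference of group means was 0.45 for 5xFAD minus WT and 0.61 for Card9-/-5xFAD minus Card9-/-, with a pooled SD of 0.36 within groups.

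**Figure D5:**
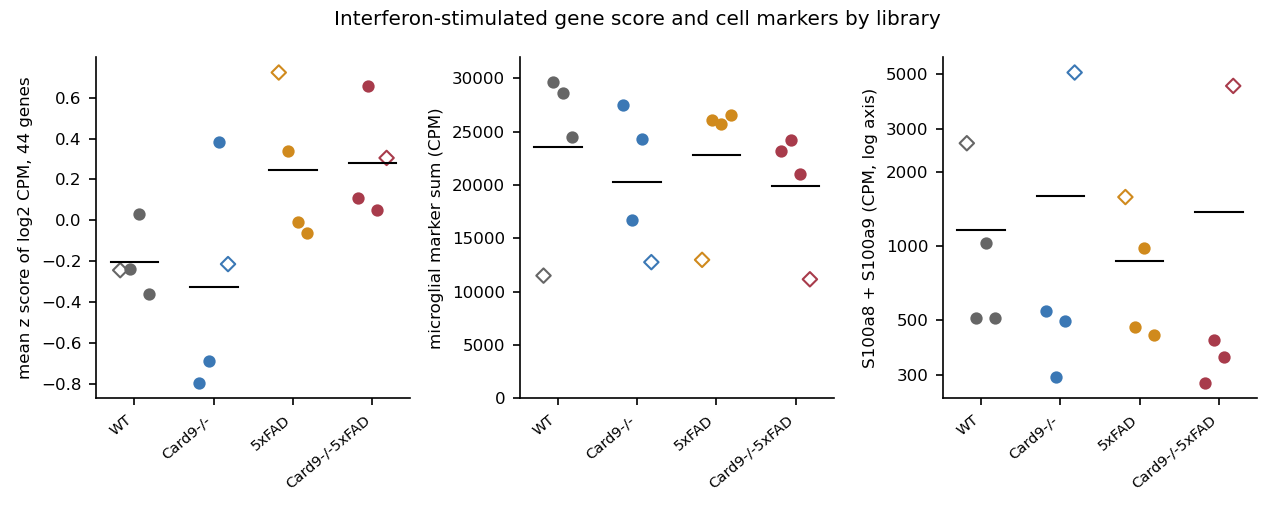
For each library, by genotype, the score of the 44 genes (left), the summed CPM of 8 microglial markers (middle) and the summed CPM of S100a8 and S100a9 on a log axis (right), with bars for the mean of 4 and open diamonds for the library of lowest microglial marker sum. The score is the mean of log2 CPM minus each gene's mean. Its axis label says z score, but values were not divided by an SD. The score is higher with the transgenes but overlaps between groups. The diamonds are lowest of their genotype in the middle panel by choice and highest of their genotype in the right panel.

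Without the 4 libraries of lowest microglial marker sum, a setting chosen after seeing the data, 14352 genes were tested and more members passed. In the averaged comparison 17 members were higher, where 17.6% of all genes were, and 3 were lower, where 16.9% were. All 13 members of the full set were among these 20, and the other 7 were Ifi27l2a, Xaf1, Ifitm3, Eif2ak2, Sp100, Cxcl10 and, among the lower ones, Oas2. Ifi27l2a then rose by 1.93 (SE 0.33, adjusted p 0.00158 by edgeR), and Oas2 fell by 1.25. In 5xFAD against WT 7 members passed, 5 higher and 2 lower, where 7.97% of all genes did, and in Card9-/-5xFAD against Card9-/- 14 passed, 12 higher and 2 lower, where 16.7% did. The share of all genes called rose as well. The median log2 fold changes were 0.28 and 0.53 for the members and -0.08 and -0.07 for all genes.

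Marker genes of other cells also differed between the groups. The summed level of 8 border-associated macrophage markers was 1151 to 1665 CPM in WT and 1409 to 1949 CPM in Card9-/-, against 705 to 755 CPM in 5xFAD and 589 to 1779 CPM in Card9-/-5xFAD. The sum of 7 B cell or plasmacytoid dendritic cell markers was 123 to 381 CPM in WT and 119 to 274 CPM in Card9-/-, and 268 to 869.5 CPM in 5xFAD and 237 to 1144 CPM in Card9-/-5xFAD. Of this list Cox6a2 reached 1089 CPM, Igkc ran from 11.5 to 268 CPM and Cd79b from 10.4 to 90.6 CPM, and Cd79a, Ms4a1, Ly6d and Klk1 stayed at or below 3.17 CPM in all 16 libraries. The difference of this sum between the groups was not split by gene, so it is not read as a number of such cells. The 9 T or NK cell markers summed to 28.6 to 379.8 CPM, with Nkg7 at 6.91 to 219 CPM, Gzma at 13.1 to 138 CPM, and Cd3e, Cd3g and Cd8a at 0 in some libraries. The part of these cells in the differences of the members was not tested.

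The second question is whether loss of Card9 alters these genes. No difference of a member passed in any comparison of Card9 genotypes by edgeR. In Card9-/- against WT 0 of 44 members passed at an adjusted p under 0.1, as did 0% of all genes, and 2 had an unadjusted p under 0.05, against 4.11% of all genes. The 3 members of lowest p were all lower without Card9: Bst2 by -1.16 (SE 0.43), Eif2ak2 by -0.67 (SE 0.29) and Isg15 by -1.02 (SE 0.50) on the log2 scale, each with an adjusted p of 0.97 by edgeR. Without WT replicate 1 alone, these values were -0.77, -0.39 and -0.48. In Card9-/-5xFAD against 5xFAD 0 of 44 passed, as did 0% of all genes, and 0 had an unadjusted p under 0.05, against 2.52% of all genes. Rtp4 (-0.67, SE 0.43), Stat2 (0.52, SE 0.36) and Slfn8 (0.78, SE 0.55) had the lowest p there, each with an adjusted p of 0.993 by edgeR. DESeq2 on all 16 libraries also called 0 members in both. Slfn8 had a log2 fold change of -0.19 when Card9-/-5xFAD replicate 4, at 316 CPM, was left out.

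Averaged over transgene status, 0 of 44 members passed, where 0.0276% of all genes did, and DESeq2 called 0 as well. An unadjusted p under 0.05 was seen for 4 members (Stat2, Bst2, Rtp4 and Oas3), against 9.12% of all genes. Stat2, a subunit of ISGF3, lies at chr10:128270559-128292849. It measured 25.5, 15.9, 18.0 and 33.0 CPM in WT and 36.0, 38.1, 42.3 and 34.3 CPM in Card9-/-. With the transgenes it measured 38.5, 14.7, 11.5 and 30.9 CPM in 5xFAD and 32.2, 45.5, 23.8 and 36.0 CPM in Card9-/-5xFAD. The Card9-/- values lay above all WT values, though Card9-/- replicate 4 exceeded WT replicate 4 by little, and the transgenic groups overlapped. The averaged log2 fold change was 0.62 (SE 0.25, adjusted p 0.52 by edgeR). Bst2 had the same adjusted p, at -0.73 (SE 0.30). Members without overlap numbered 2 in Card9-/- against WT (Oas3 and Stat2, both higher), where 2.66% of all genes did not overlap, and 0 in Card9-/-5xFAD against 5xFAD, where 1.89% did not.

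These comparisons leave wide ranges. The median SE of a member was 0.50 in Card9-/- against WT and 0.49 in Card9-/-5xFAD against 5xFAD. An interval of 2 SEs lay within a 2-fold change in either direction for 12 and 9 of the 44 members, so differences of that size remained possible for most. For Lgals3bp the interval in Card9-/-5xFAD against 5xFAD ran from -1.18 to 0.69 and for Isg15 from -1.31 to 0.63. The medians of the members were -0.02 and 0.10, against 0.11 and 0.14 for all genes. With 1 library left out they ran from -0.38 to 0.16 and from -0.14 to 0.26, so neither kept its direction. Without the 4 libraries of lowest microglial marker sum the second was 0.22 against 0.05 for all genes, the reverse order. Ifih1 and Zbp1 lie on chromosome 2, as Card9 does, and averaged 0.18 and -0.63 with Card9 loss, neither past the threshold.

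Whether the transgene response itself depended on Card9 was tested as an interaction. No member passed by edgeR, as did 0% of all genes, and 0 had an unadjusted p under 0.05, against 0.537% of all genes. The members of lowest p were Bst2 (0.86, SE 0.60), Gbp3 (0.75, SE 0.54) and Eif2ak2 (0.59, SE 0.41), each with an adjusted p of 1 by edgeR. A positive value means a higher log2 fold change without Card9. For Gbp3, which was lower with the transgenes in both comparisons, it means a smaller fall. For Lgals3bp the 2 responses differed by 0.24 (SE 0.66), with an interval of 2 SEs from -1.08 to 1.56. The median SE of the interaction was 0.70, so that only 2 of 44 intervals lay within a 2-fold difference.

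Beyond the 44, 91 further genes of the pathway were listed, of which 90 were in the table and 77 were tested. None of the 10 interferon genes listed, Ifnb1 among them, had enough reads to be tested. Of 7 receptor and kinase genes 1 was higher in the averaged comparison, Ifnar2, which encodes the signaling chain of the receptor (0.75, SE 0.21, adjusted p 0.0485 by edgeR). None of 7 further STAT and IRF genes passed. Of 9 upstream sensor and adaptor genes tested, 1 was lower, the kinase gene Tbk1 (-0.75, SE 0.22, adjusted p 0.0543 by edgeR), and 0 of 5 negative regulators passed. Of 49 other interferon-stimulated genes tested, 5 were higher and 5 lower, where 5.62% and 5.73% of all genes were. Among the higher were Phf11b (1.43, SE 0.27, adjusted p 0.00458 by edgeR), a relative of Phf11d, and Psmb8 (0.70, SE 0.21, adjusted p 0.0554), an immunoproteasome subunit, and among the lower was Gbp5 (-0.96, SE 0.26, adjusted p 0.0401). Phf11b was also the 1 pathway gene to pass in 5xFAD against WT (1.49, SE 0.39, adjusted p 0.0782), and none passed in Card9-/-5xFAD against Card9-/- or with Card9 loss.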

How the data were processed

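RNA of 16 CD11b-sorted microglia libraries was counted per gene. The authors aligned reads to mm10 with HISAT2, filtered them with SAMtools and counted them with HTSeq, and deposited whole-number read counts without normalization; settings are not given in the sources used here. Counts were analysed in R 4.3.3 with edgeR 4.0.16: TMM scaling, filterByExpr with a minimum count of 10 (14513 genes), and a quasi-likelihood fit of all 16 libraries in 4 groups. P-values were adjusted over all genes tested by the Benjamini-Hochberg method, with a threshold of 0.1. SEs come from the fold change and its F statistic. The score averages log2 CPM (prior count 2) minus each gene's mean over the 16 libraries. Positions are from GENCODE M21 on GRCm38. The steps were tested on simulated counts.

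The members, roles, pathway and marker lists were chosen with earlier results of these data known. Log2 fold change, SE and adjusted p are given for members past the threshold (the 10 of lowest p where more passed) or, where none passed, the 3 of lowest p. Values per library are given for the 6 members of lowest p in the averaged transgene comparison, the 2 of lowest p in the averaged Card9 comparison, and members without overlap in both transgene comparisons. At most 5 pathway genes are named per comparison. Groups follow the labelled genotypes. Alternatives were DESeq2 1.42.0 or its size factors, other filters and thresholds, fewer groups, a replicate block, a surrogate variable (sva 3.50.0) and leaving out libraries. Replicates of 1 genotype differed beyond counting noise (lowest chi-square per degree of freedom 6.92). Depth ran from 2970148 to 19333325 reads.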

Additional observations from a re-analysis of the deposited data

Results flagged for a closer look

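In each of 180 groups of 4 libraries (the 44 members and their score in 4 genotypes) the highest and lowest value were compared with the others by Dixon's test, and 11 stood apart. Chance alone puts about 5% of groups past this limit. Of the 11, 6 were high values in the library of lowest microglial marker sum of the genotype: Herc6 in 5xFAD replicate 1 (68.2 CPM) and in Card9-/-5xFAD replicate 4 (137 CPM), Slfn8 in the same libraries (139 and 316 CPM), Parp14 in Card9-/- replicate 4 (179.6 CPM), and Oasl1 in 5xFAD replicate 1 (5.31 CPM). Such a library was instead low for Ifit2 and Irf7 in WT replicate 1 (9.51 and 8.10 CPM) and for Oas1a in Card9-/-5xFAD replicate 4 (10.01 CPM). The other 2 were Ifi204, high in Card9-/- replicate 3 (44.9 CPM), and Ifi44, low in Card9-/-5xFAD replicate 3 (1.91 CPM). Oas1a passed the threshold in the averaged transgene comparison with that library included. No member's interaction passed.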

How the results depend on the processing

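The averaged transgene comparison called 13 members (11.3% of all genes), 9 without a low-count filter (3.57%), 21 with 1 surrogate variable (31.5%), 20 without the 4 libraries (34.5%) and 10 to 18 with 1 library left out; Lgals3bp, Isg15, Zbp1, Slfn5, Gbp7, Bst2, Rtp4, Trim30a, Oas1a and Gbp3 stayed past the threshold in all 16 leave-one-out fits (Trim30a and Gbp3 not without the filter), and Usp18, Oasl2 and Phf11d in 8, 7 and 6. In 5xFAD against WT the count of 2 became 0 without a low-count filter or at a threshold of 0.05, 1 in a fit of only those groups or with the replicate block, 5 with DESeq2, 11 with a surrogate variable, 7 without the 4 libraries and 0 to 3 with 1 library left out (0 without WT replicate 2 or 4, among others). In Card9-/-5xFAD against Card9-/- the count of 3 became 0 at 0.05 or in a fit of only those groups, 5 with the replicate block, 7 with DESeq2, 13 with a surrogate variable, 14 without the 4 libraries and 0 to 7 with 1 left out (0 without Card9-/- replicate 1 or 2 or Card9-/-5xFAD replicate 2). The number of all genes called moved as well. In 5xFAD against WT it went from 304 to 208 unfiltered, 222 at 0.05, 294 in only those groups and 306 with the block. With DESeq2 it was 591, with a surrogate variable 1251, without the 4 libraries 1144 and with 1 left out 164 to 386. In Card9-/-5xFAD against Card9-/- it went from 286 to 162 at 0.05, 96 in only those groups and 340 with the block. It was 835, 1810, 2394 and 120 to 720 in the other settings, in the same order. The cause of these moves was not tested. The 3 comparisons of Card9 loss and the interaction called 0 members under every alternative run, and among the log2 fold changes printed with their tests, the ones tracked here, 1 changed sign, Slfn8 in Card9-/-5xFAD against 5xFAD (-0.19 without Card9-/-5xFAD replicate 4; -0.19 to 1.26 with any 1 library left out). In the averaged transgene comparison 6.39% to 20.5% of all genes passed with 1 library left out. With 1 library left out, members above 0 numbered 28 to 39 in 5xFAD against WT and 14 to 32 in Card9-/- against WT. DESeq2 size factors moved the median of all genes in the averaged comparison from -0.15 to -0.08 and that of the members from 0.49 to 0.57. Replicate numbers did not pair the libraries (r from -0.71 to 0.73 over 24 same-numbered pairs, 15 above 0.1; 5 of 16 libraries correlated best with their own number). The shallowest library held 2970148 reads, and 37 of 44 members had at least 10 counts in every library.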
